A study of Mus musculus with 6 samples.

Results

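The Toll-like receptor genes examined here were Tlr1, Tlr2, Tlr3, Tlr4, Tlr5, Tlr6, Tlr7, Tlr8, Tlr9 and Tlr13. They were taken by gene symbol from a table of 16440 genes, and all 10 were found. Their mRNA levels were compared between 3 libraries of c-Kit+ progenitors from mouse acute promyelocytic leukemia (APL) and 3 libraries of normal myeloid progenitors (MPs). The comparison asks how the rise of Tlr7 in the leukemic cells stands against the rest of its family. The study names Tlr7 as a marker of monocytic maturation between subsets of APL cells, which is a different contrast. The MPs were Lin-Sca-1-c-Kit+ cells sorted from the bone marrow of FVB N/J mice, a gate that holds several kinds of myeloid, erythroid and megakaryocytic progenitors and leaves out cells with mature lineage markers. The APL cells arose in hMRP8-PML/RARα transgenic FVB mice, in which a promoter active in myeloid cells drives the fusion gene. They had been marked with GFP by the retroviral vector MigR1, had been expanded by transplantation into syngeneic mice, and were sorted as GFP-labeled c-Kit+ cells, without the Lin and Sca-1 gate of the controls. Per the paper's supplement, marking took place in culture with stem cell factor, interleukins and polybrene. The marked cells were then transplanted into sublethally irradiated mice. The MPs carried neither the transgene nor GFP, no group was given a drug according to the sources used here, and the sex of the mice and the age of those that gave the MPs were not given. Recipients of APL cells in the study were young adult mice. The series describes the 3 libraries of a group as biological replicates but does not say that each came from a separate mouse or leukemia, so p-values measure the spread between these libraries.

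Toll-like receptors are membrane proteins of innate immune cells that bind molecules of microbes. Tlr1, Tlr2, Tlr4, Tlr5 and Tlr6 act at the cell surface on lipids, lipopolysaccharide and flagellin, whereas Tlr3, Tlr7, Tlr8, Tlr9 and Tlr13 act in endosomes on nucleic acids. Their cytoplasmic TIR domains recruit adaptors such as Myd88 and Ticam1, from which kinases of the Irak and IKK families lead to NF-κB and to interferon regulatory factors. In bone marrow these receptors are best known from monocytes, macrophages, dendritic cells, B cells and neutrophils, and some are already present on myeloid progenitors.

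The deposited values are FPKM, which takes transcript length and library size into account, and estimated fragments per gene after multiplication by a library factor (scaled fragments). FPKM is used below to compare levels between genes, and scaled fragments to compare the groups. Totals before scaling were between 22976905 and 26932327 fragments in the MP libraries and between 20608715 and 28382785 in the APL libraries. MP library 3 stood apart: its variance against MP libraries 1 and 2 was 12.28 and 12.27 times that of counting noise, against 2.91 times between these libraries. Between pairs of APL libraries the variance was 5.84, 3.65 and 3.05 times that of counting noise. Kit was expressed in both groups, with a mean FPKM of 72.4 in MPs and 40.4 in APL progenitors, and Ly6a, which encodes Sca-1, was at 1.36 and 2.18. Marker genes were called by the rule given below, under which 21.7% of all genes tested were higher and 24.4% lower. Erythroid markers were lower in APL progenitors for 8 of 8 genes, with a summed FPKM of 1581 to 2049 in the MP libraries and 43.8 to 53.0 in the APL libraries. Megakaryocytic markers were lower for 5 of 6 genes. Of 12 neutrophil granule markers, 5 were higher and 2 lower, and of 13 monocyte and macrophage markers, 8 were higher and 4 lower, with a summed FPKM of 1127 to 1449 in MPs and 12025 to 12380 in APL progenitors. The part of these lineage differences in the results below was not tested, and in sorted pools fewer cells of a type and less RNA per cell cannot be told apart.

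Most of the family was higher in c-Kit+ APL progenitors. Of the 10 receptor genes, 8 were upregulated, Tlr9 was downregulated and Tlr3 was not called. The largest rises were those of Tlr7 (14.2-fold) and Tlr4 (8.29-fold), followed by Tlr8 (6.54-fold) and Tlr1 (6.24-fold). Tlr13, Tlr5, Tlr6 and Tlr2 rose by smaller amounts, 2.70-fold, 2.61-fold, 2.29-fold and 1.63-fold. The groups were compared with limma on log2(scaled fragments + 1), and a gene was called at a Benjamini-Hochberg adjusted p under 0.05 over 14595 genes tested together with a fold change over 1.5. All 10 receptor genes passed the filter on low values, with at least 1 scaled fragment in each of the 6 libraries. Under the call rule 21.7% of all genes tested were upregulated, 24.4% downregulated and 46.1% called in either direction. The APL libraries lay wholly above the MP libraries for 8 of the receptor genes, against 31.1% of all genes tested, and wholly below for Tlr9, against 39.8%. In all, 9 of 10 did not overlap between groups, against 70.9% of all genes tested. The median log2 fold change was 1.41 over the 10 receptor genes and -0.10 over all genes tested. Fold changes on the log2(value + 1) scale understate the change of genes with few fragments.

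**Figure D1:**
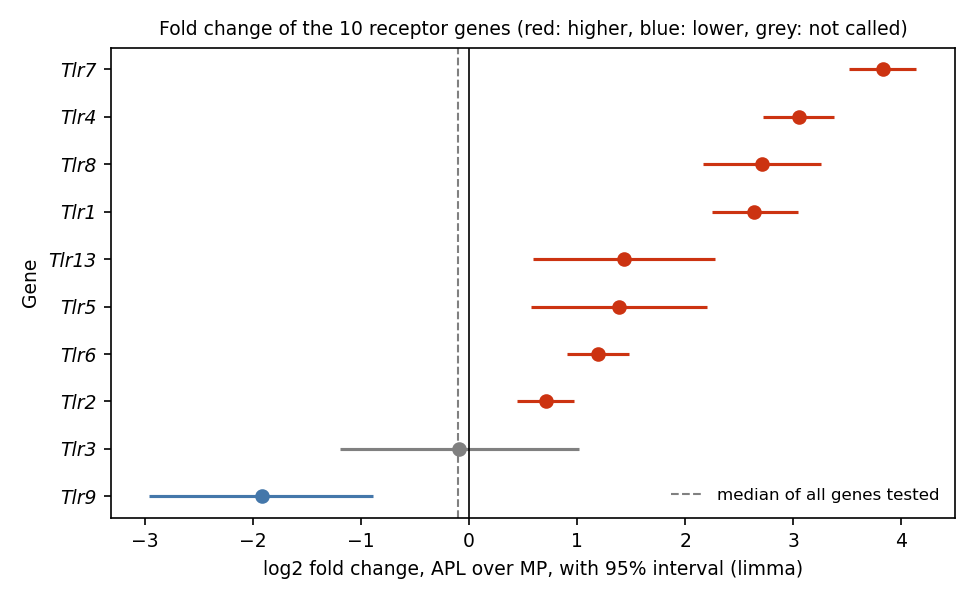
Log2 fold change of each receptor gene, APL over MP, from limma with its 95% interval on the horizontal axis, with genes in rows. Tlr7 lies highest at 3.83 and Tlr9 lowest at -1.92, and the dashed line marks the median of all genes tested at -0.10.

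Tlr4, the receptor for lipopolysaccharide, maps to bases 66827811 to 66842796 of chromosome 4 (GRCm38, as are the positions that follow). The MP libraries 1 to 3 held 279, 284 and 195 scaled fragments of it, and the APL libraries 2213, 1970 and 2035. Every APL library was above every MP library, and MP library 3 was the lowest. It rose by 3.05 ± 0.14 (standard error) on the log2 scale (limma, adjusted p = 2.5e-07), and 3.62% of genes tested had a larger rise. Of its co-receptors, Cd14, which hands lipopolysaccharide to the receptor, rose from 173 ± 40.8 to 447 ± 49.4 scaled fragments (SD, n = 3 libraries each). Ly96, which encodes the MD-2 subunit that binds the lipid, had 10.3, 15.2 and 22.5 scaled fragments in MPs and 31.8, 23.4 and 19.7 in APL progenitors. These groups overlapped, and the log2 difference of 0.65 was not called (adjusted p = 0.12 from limma).

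Tlr2 pairs with Tlr1 or Tlr6 to recognize bacterial lipoproteins, and all 3 genes rose. Tlr1 (chromosome 5, 64924834 to 64932699) had 53.4, 41.1 and 49.1 scaled fragments in the MP libraries and 312, 259 and 342 in the APL libraries. This was a rise of 2.64 ± 0.17 (standard error) on the log2 scale (limma, adjusted p = 1.7e-06). Tlr6 (chromosome 5, 64953095 to 64960034), the neighbor of Tlr1 on the same chromosome, had 152, 188 and 183 scaled fragments in MPs and 397, 418 and 380 in APL progenitors. This was a rise of 1.19 ± 0.12 (limma, adjusted p = 3.3e-05). The 95% intervals of Tlr1 (2.25 to 3.04) and Tlr6 (0.91 to 1.48) did not overlap. Tlr2 (chromosome 3, 83836272 to 83841608) had 177, 188 and 189 scaled fragments in MPs and 297, 331 and 279 in APL progenitors. Its libraries did not overlap between groups, but its log2 fold change of 0.71 (standard error 0.12) was the smallest of the 8 rises. It was not called at a fold change of 2, nor with libraries scaled to the same total, where it was 0.57.

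Tlr5, the receptor for flagellin on chromosome 1 (182954788 to 182976044), was near the limit of detection. It had 3, 7 and 7 fragments before scaling in the MP libraries and 15, 15 and 11 in the APL libraries, so the groups did not overlap. On the log2 scale the rise was 1.39 ± 0.36 (limma, adjusted p = 0.0077). The ratio of the pooled fragments was 2.77, with an exact 95% interval of 1.54 to 5.19 that covers counting error only. The rise was 0.76 when FPKM with 0.1 added was used and 2.04 after quantile normalization.

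Tlr7, the endosomal receptor for single-stranded RNA, occupies bases 167304931 to 167330528 of chromosome X. Its scaled fragments were 74.0, 62.8 and 55.0 in the MP libraries and 920, 951 and 876 in the APL libraries. The lowest APL library thus held more than 10 times the highest MP library. The rise of Tlr7 was 3.83 ± 0.14 on the log2 scale (limma, adjusted p = 5.1e-08). A larger rise was seen for 359 genes, 2.46% of those tested. For its scaled fragments taken alone, the exact two-sided permutation p was 0.1, which is as low as 3 against 3 libraries can reach.

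Tlr8, the closest relative of Tlr7 and its neighbor on chromosome X (167242732 to 167263788), rose from a lower level. Its scaled fragments were 14.0, 9.52 and 15.3 in MPs and 90.7, 94.5 and 81.5 in APL progenitors, with no overlap between the groups. Its rise was 2.71 ± 0.24 on the log2 scale (limma, adjusted p = 1.3e-05). Tlr13, which recognizes bacterial ribosomal RNA and also lies on chromosome X (106143275 to 106160493), had 36.5, 12.4 and 23.4 scaled fragments in MPs and 67.2, 71.1 and 48.1 in APL progenitors. Its MP libraries were the most scattered of the 8 upregulated genes relative to their mean. The groups did not overlap, and the rise was 1.43 ± 0.37 (limma, adjusted p = 0.0078).

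Tlr3, the receptor for double-stranded RNA on chromosome 8 (45395665 to 45410539), was low in both groups. It had 14, 14 and 11 fragments before scaling in MPs and 14, 5 and 15 in APL progenitors. The groups overlapped, and APL library 2 was the lowest of the 6. The log2 difference was -0.09 with a 95% interval of -1.20 to 1.02, which holds differences of 1 in either direction. Without APL library 2 it was 0.50. Chromosome 8 genes had a median log2 fold change 0.61 above that of genes elsewhere, whereas the other chromosomes that carry these receptors had shifts between -0.10 and 0.02.

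Tlr9, the receptor for unmethylated CpG DNA on chromosome 9 (106222598 to 106226876), was the only one of the 10 that fell. It had 15, 4 and 10 fragments before scaling in the MP libraries and 1, 2 and 1 in the APL libraries. Every APL library was below every MP library, but at these counts the size of the fall was poorly determined. The ratio of pooled fragments, MP over APL, was 6.32 with an exact 95% interval of 2.22 to 24.7 for counting error. In the limma fit it fell by 1.92 ± 0.46 on the log2 scale (adjusted p = 0.0049), and the log2 fold change was -1.06 with 5 in place of 1 added to each value. Under a filter of at least 10 scaled fragments, and with FPKM, Tlr9 was too low to be tested and was not called. Plasmacytoid dendritic cells and B cells are among the cell types best known for Tlr9. Of 10 dendritic and plasmacytoid markers, 5 were lower (Zbtb46, Flt3, Ccr9, Siglech and Clec9a) and Bst2 was higher. Over all genes tested, 24.4% were lower and 21.7% higher. Zbtb46, Ccr9, Siglech and Clec9a were at or under 3 fragments in each APL library, and Cd209a was so in all 6 libraries. The summed FPKM of the list was 70.3 to 90.5 in MPs and 85.8 to 108 in APL progenitors, of which Bst2, which many cell types express, made up 43.0 to 55.8 and 80.2 to 103. Flt3 went from 1894 ± 482 to 31.9 ± 3.43 scaled fragments and Zbtb46 from 319 ± 31.7 to 1.09 ± 0.198. Whether these 2 genes stood for dendritic cells in the sorted progenitors was not tested. Other genes of the list were already low in MPs. Ccr9, Siglech, Clec9a, Xcr1 and Cd209a had MP means of 17.6, 10.2, 5.23, 4.02 and 1.54 scaled fragments. Among genes of B lineage cells, Cd79b went from 363 ± 45.8 to 6.83 ± 3.04 scaled fragments and Vpreb1 from 9.96 ± 2.75 to 109 ± 16.2, and Cd79a, with 7.37 ± 3.80 and 5.41 ± 2.14, was not called. The part of these cells in the result for Tlr9 was not tested.

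**Figure D2:**
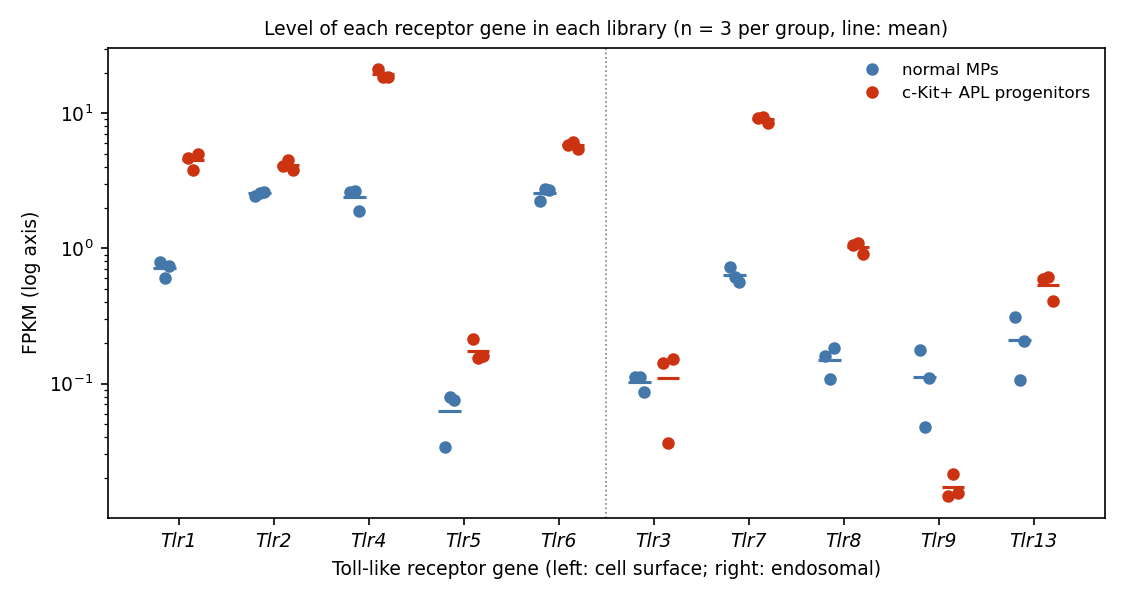
FPKM on a log axis for each receptor gene, with 1 point per library (blue, normal MPs; red, APL progenitors) and a line at the mean of 3 libraries. Red points lie wholly above blue ones for 8 genes, wholly below for Tlr9, and overlap for Tlr3.

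Tlr11 and Tlr12, which sense profilin of protozoa and complete the family in mice, were looked at beside the members. Tlr11 had at most 3 fragments in any library and was not tested. Tlr12 had 35.6, 34.3 and 30.7 scaled fragments in MPs and 16.5, 32.1 and 22.2 in APL progenitors. These groups overlapped, and the log2 difference of -0.54 was not called (adjusted p = 0.12 from limma).

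The 300 bases around the start site (250 before and 50 after) are shown for Tlr8, the rising neighbor of Tlr7, for Tlr1 and Tlr2, which rose by a large and a small amount, and for Tlr9, which fell. They are from RefSeq on GRCm38.p6 and are written 5′ to 3′ on the strand of the gene. RefSeq windows were at hand for 8 of the 10 genes, and Tlr4 and Tlr7 had no entry. Capitals mark matches, on either strand, to any of 7 motifs: GAGGAAGT (PU.1), GGAANNGAA (ETS and IRF composite), GAAANNGAA (core of the interferon-stimulated element), TTGCNNAA (C/EBP), GGGANTTCC (NF-κB), AGGTCA (the single hexamer bound by retinoid receptors) and the TATA box (TATAAA). The composite and the core can overlap where their letters coincide.
Tlr8 (chrX:167264280-167264579, minus strand): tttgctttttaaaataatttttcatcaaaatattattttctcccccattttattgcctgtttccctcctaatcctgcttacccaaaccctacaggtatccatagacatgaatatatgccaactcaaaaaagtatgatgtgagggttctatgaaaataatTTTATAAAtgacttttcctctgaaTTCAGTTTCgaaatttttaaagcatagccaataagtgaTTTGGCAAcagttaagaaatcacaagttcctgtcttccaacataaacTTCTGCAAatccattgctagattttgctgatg
Tlr1 (chr5:64933509-64933808, minus strand): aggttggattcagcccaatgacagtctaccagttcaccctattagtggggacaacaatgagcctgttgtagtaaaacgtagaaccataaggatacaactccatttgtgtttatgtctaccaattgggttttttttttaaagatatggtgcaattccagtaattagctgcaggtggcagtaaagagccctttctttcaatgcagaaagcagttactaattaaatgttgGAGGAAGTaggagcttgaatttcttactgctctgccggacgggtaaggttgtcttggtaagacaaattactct
Tlr2 (chr3:83841559-83841858, minus strand): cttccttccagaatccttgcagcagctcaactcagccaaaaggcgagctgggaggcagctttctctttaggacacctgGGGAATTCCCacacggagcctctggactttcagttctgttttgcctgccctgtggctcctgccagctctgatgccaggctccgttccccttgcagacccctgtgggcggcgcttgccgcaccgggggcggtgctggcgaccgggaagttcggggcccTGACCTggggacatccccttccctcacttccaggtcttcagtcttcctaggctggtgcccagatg
Tlr9 (chr9:106222348-106222647, plus strand): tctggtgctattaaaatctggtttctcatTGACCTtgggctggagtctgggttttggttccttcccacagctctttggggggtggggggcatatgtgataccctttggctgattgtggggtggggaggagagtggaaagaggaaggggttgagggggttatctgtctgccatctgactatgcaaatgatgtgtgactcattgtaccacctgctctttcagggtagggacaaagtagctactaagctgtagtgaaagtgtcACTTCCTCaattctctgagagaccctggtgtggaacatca

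No motif was found in all 4 windows. The Tlr8 window held 1 match to the interferon-stimulated core, 2 to C/EBP and 2 overlapping TATA matches, and its RefSeq start lies 541 bases outside the deposited locus. The Tlr1 window, at a RefSeq start 859 bases outside the deposited locus, held 1 PU.1 match from base -23 to -16, with the start site as 0. The window of Tlr1 at the deposited start held none of the 7 motifs. The Tlr2 window held a single NF-κB stretch that matched on both strands, from base -172 to -163, and a retinoid hexamer. The Tlr9 window held a PU.1 match from base 10 to 17 and a retinoid hexamer. Among all 32851 windows, 3.20% held the PU.1 motif, 8.24% the composite, 8.56% the interferon-stimulated core, 10.8% C/EBP, 16.3% the retinoid hexamer, 1.68% NF-κB and 13.6% the TATA box. A match describes letters, not binding.

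Within each library, Tlr7 was set against each other member as a log2 ratio of scaled fragments with 1 added. This ratio was higher in all 3 APL libraries than in all 3 MP libraries for 9 of the 9 members. All 9 ratios share Tlr7, which had the largest rise of the family, so they are not 9 separate results. Over all genes tested, only 2.46% rose more than Tlr7, so gains of Tlr7 are not particular to this family. The difference was smallest against Tlr4. There the log2 ratio was -1.90, -2.16 and -1.81 in MPs and -1.26, -1.05 and -1.21 in APL progenitors, so Tlr7 stayed below Tlr4 in scaled fragments while gaining 0.78 on it. Against Tlr8 and Tlr1 the gain was 1.12 and 1.19 on the log2 scale. The ratio of Tlr7 to Tlr8 in FPKM was 4.60, 5.68 and 3.07 in MPs and 8.65, 8.55 and 9.32 in APL progenitors. Tlr2 and Tlr6 changed places with Tlr7, with log2 ratios of -1.77 to -1.25 (Tlr2) and -1.71 to -1.03 (Tlr6) in MPs and of 1.52 to 1.65 and 1.18 to 1.21 in APL progenitors. The largest gains, 3.92 against Tlr3 and 5.75 against Tlr9, rest on few fragments of the other gene. Each of the 9 exact permutation tests gave p = 0.1 (adjusted p = 0.1), the smallest p of this design. The log2 fold change of Tlr7 lay 2.44 above the median of the other members.

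**Figure D3:**
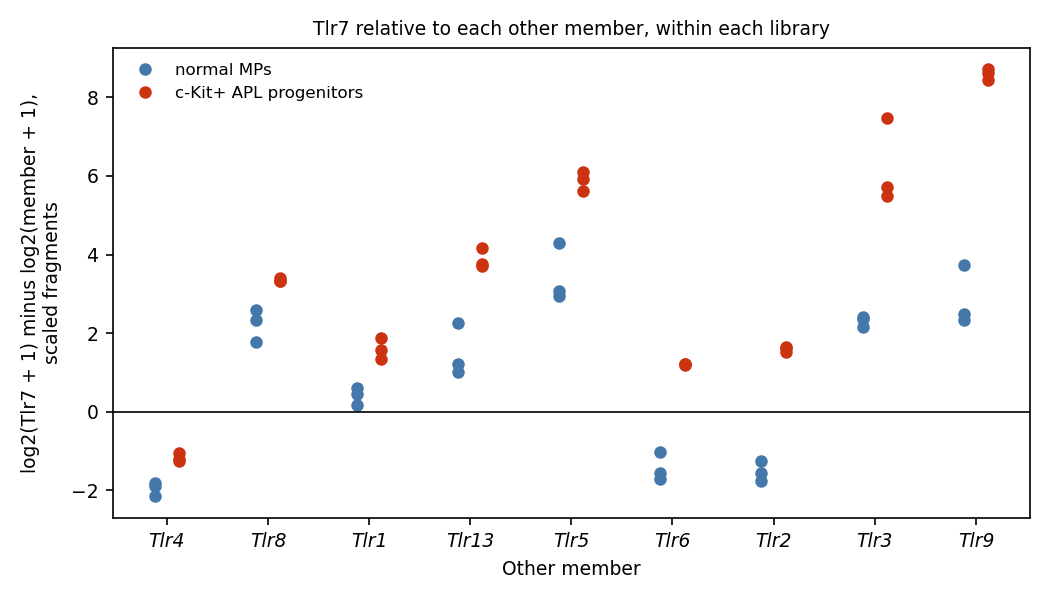
Log2 ratio of Tlr7 to each other member in scaled fragments (with 1 added), 1 point per library (blue, MPs; red, APL progenitors). Red points lie above blue ones for every member, and the ratio crosses 0 for Tlr2 and Tlr6 and stays below 0 for Tlr4.

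Per length, the order of the receptors also differed between the groups. In MPs, Tlr6, Tlr2 and Tlr4 led with a mean FPKM of 2.56 ± 0.288, 2.55 ± 0.0796 and 2.39 ± 0.428 (SD, n = 3 libraries), and these neighbors in the order overlapped. Tlr1 (0.714 ± 0.0973) and Tlr7 (0.637 ± 0.0866) followed and overlapped each other. Tlr13, Tlr8, Tlr9 and Tlr3, between 0.209 and 0.103, each overlapped the next, and Tlr5 was last at 0.0631 ± 0.0255. In APL progenitors, Tlr4 led with 19.4 ± 1.51 and Tlr7 was next with 8.99 ± 0.513, ahead of Tlr6 with 5.79 ± 0.313. Among these and the lower ranks, only Tlr1 (4.48 ± 0.601) and Tlr2 (4.12 ± 0.373) overlapped as neighbors. Tlr8 stood at 1.02 ± 0.104, Tlr13 at 0.536 ± 0.115, Tlr5 at 0.175 ± 0.0315, Tlr3 at 0.110 ± 0.0635 and Tlr9 at 0.0171 ± 0.00363.

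Summed over the 10 genes, FPKM was 9.64, 9.64 and 9.19 in the MP libraries and 47.0, 44.3 and 42.8 in the APL libraries. Tlr4 and Tlr7 together held 31.8% ± 4.41 of the sum in MPs and 63.6% ± 0.921 in APL progenitors (SD, n = 3 libraries each). Without these genes the sum was 6.46 ± 0.236 in MPs and 16.3 ± 0.384 in APL progenitors. Tlr7 alone went from 6.71% ± 0.785 to 20.1% ± 0.923 of the sum. The endosomal receptors as a class held 12.8% ± 2.61 in MPs and 23.9% ± 1.14 in APL progenitors, and the surface receptors the rest.

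**Figure D4:**
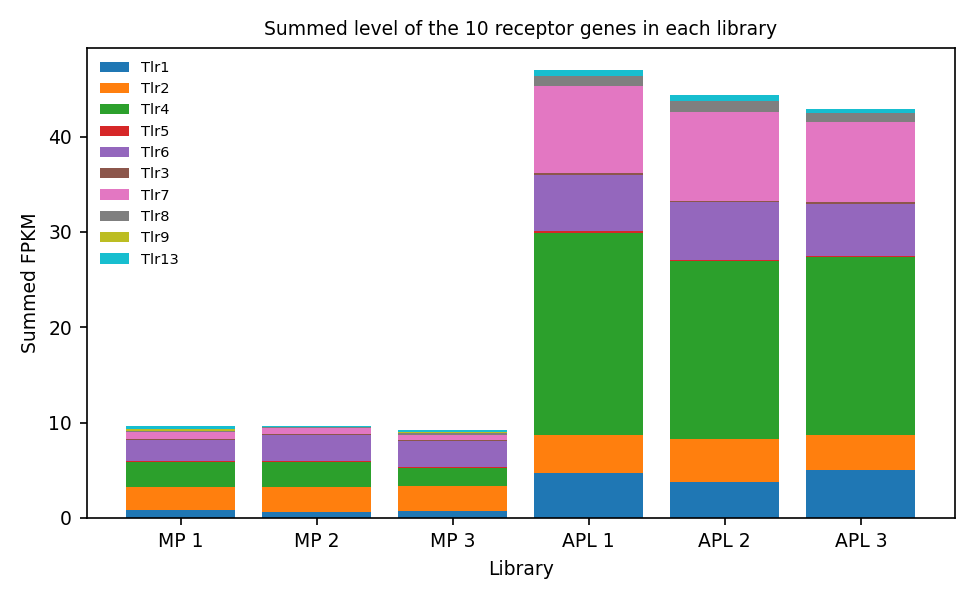
Summed FPKM of the 10 receptor genes in each library, with 1 bar per library divided by gene. The MP bars reach 9.19 to 9.64 and the APL bars 42.8 to 47.0, of which Tlr4 and Tlr7 make up 63.0% to 64.7%.

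Around Tlr7 on chromosome X, the genes within 500 kb did not all move with it. Prps2, a nucleotide synthesis enzyme 15.8 kb away, had 2289 ± 88.5 scaled fragments in MPs and 1549 ± 101 in APL progenitors, a log2 difference of -0.56 that missed the fold threshold. Tmsb4x, which encodes an actin-binding peptide and lies 95.7 kb away beyond Tlr8, rose from 15381 ± 2261 to 70123 ± 4251 (log2 fold change 2.20). Frmpd4 and Gm8817 were too low to test. The median gene of chromosome X was shifted by -0.08 relative to other genes. Xist is the RNA of the inactive X chromosome in female cells. It had 61314, 63138 and 22259 scaled fragments in MPs and 17188, 11120 and 11249 in APL progenitors. MP library 3, which stood apart from the other MP libraries, thus held the lowest MP value. The Xist locus overlaps the antisense gene Tsix. The Y chromosome genes Ddx3y, Eif2s3y, Kdm5d and Uty were not among the measured genes. The part of X-chromosome dosage in the rises of Tlr7, Tlr8 and Tlr13 was not tested.

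The genes whose 6 values ran most like those of Tlr7 were Mcf2l, Rgnef, Abcd2, Il28ra and Oas1g. Likeness was the Euclidean distance between centered log2 values over the 6 libraries, among 10309 genes with a mean of at least 100 scaled fragments, and because the libraries form only 2 groups it mainly reflects the size of the group difference. The distances were 0.142 for Mcf2l, 0.148 for Rgnef, 0.179 for Abcd2, 0.229 for Il28ra and 0.279 for Oas1g. Those of the receptor genes compared were 1.00 for Tlr4, 1.53 for Tlr1, 3.27 for Tlr6 and 3.84 for Tlr2. Tlr3, Tlr5, Tlr8, Tlr9 and Tlr13 had means under 100 scaled fragments and were not compared. Il28ra, a receptor chain for interferon lambda, had 58.0 ± 3.44 scaled fragments in MPs and 858 ± 28.8 in APL progenitors. Oas1g, a 2'-5' oligoadenylate synthetase gene with several close paralogs, had 17.8 ± 3.25 and 290 ± 42.0. Abcd2, a peroxisomal transporter of fatty acids, had 858 ± 157 and 12179 ± 143.

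The genes that work with the receptors were called in both directions. Over 72 genes in 6 lists (co-receptors, trafficking and processing, adaptors, kinases and ligases, transcription factors, negative regulators), 17 (23.6%) were upregulated and 14 (19.4%) downregulated, beside 21.7% and 24.4% of all genes tested. Their median log2 fold change was 0.11, beside 1.41 for the receptor genes.

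Among 6 adaptors, 3 were upregulated and none was downregulated in limma's test. Myd88, which serves all of these receptors but Tlr3, rose from 1024 ± 129 to 1797 ± 78.9 scaled fragments (log2 fold change 0.82). Ticam1, the adaptor of Tlr3 and of endocytosed Tlr4, had a log2 difference of 0.36 and its partner Ticam2 of -0.31, and neither passed the fold threshold. Sarm1, a TIR domain protein with NAD-cleaving activity, went from 3.11 ± 1.49 to 284 ± 19.2 scaled fragments. Pik3ap1, which links the receptors to PI3 kinase, had a log2 fold change of 0.59. Tirap had a log2 difference of 0.30.

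Of 9 co-receptor genes, 4 were upregulated and 3 downregulated. Trem1, which amplifies Toll-like receptor signals, rose most (log2 fold change 3.13), ahead of Cd14 (1.39), Itgam (1.01), the αM integrin chain, and Lbp (0.67), the lipopolysaccharide-binding protein. Cd180 and Ly86, which encode the receptor-like RP105 and its MD-1 subunit, fell together. Cd180 went from 240 ± 34.0 to 14.7 ± 3.10 scaled fragments and Ly86 from 456 ± 45.3 to 16.8 ± 5.98. Cd36, a lipid scavenger receptor that works with Tlr2 and Tlr6, fell from 68.6 ± 15.3 to 5.16 ± 2.45.

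Of 17 trafficking and processing genes, 4 were upregulated and 3 downregulated. Unc93b1, the chaperone that carries the endosomal receptors, had 1506 ± 191 scaled fragments in MPs and 1381 ± 149 in APL progenitors, and its log2 difference was -0.12. Hsp90b1, the endoplasmic reticulum chaperone required for most Toll-like receptors, rose from 24581 ± 3358 to 52857 ± 2016. Pld4 and Pld3, lysosomal exonucleases that digest nucleic acid ligands, rose with log2 fold changes of 1.97 and 1.53, and Lrrc33, a receptor-like relative of the family, with 1.05. The endosomal proteases Lgmn, Ctss and Ctsl, which cut the receptor ectodomains, fell with log2 fold changes of -2.12, -1.61 and -0.82.

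Of 18 kinases and ubiquitin ligases, 2 were upregulated, 2 were downregulated and 14 were not called. Map3k8 and Ripk1 rose (log2 fold changes 1.65 and 0.78), and Irak2 and Map3k7, which encodes TAK1, fell (-1.51 and -0.61). Irak1 and Irak4, the kinases next to Myd88, had log2 differences of 0.11 and 0.19. Of 10 transcription factors, 1 was upregulated and 4 were downregulated. Relb rose (0.94), and the interferon regulatory factors Irf8, Irf5, Irf7 and Irf1 fell with log2 fold changes of -4.91, -3.08, -1.31 and -0.83. Irf5 and Irf7, which act directly below Tlr7 and Tlr9, went from 224 ± 73.9 to 27.0 ± 12.8 and from 138 ± 32.5 to 54.2 ± 4.19 scaled fragments. The study names Irf8, Klf4, Irf7 and Tlr7 as marks of monocytic maturation, measured by RT-PCR between subsets of APL cells. The contrast here, APL progenitors against normal MPs, is a different one. In it Tlr7 rose, Irf8 and Irf7 fell, and Klf4 had a log2 difference of 0.11 that was not called.

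Of 12 negative regulators, 3 were upregulated and 2 downregulated. Socs1, a feedback inhibitor of cytokine and Toll-like receptor signaling, rose from 20.7 ± 4.81 to 154 ± 21.5 scaled fragments, and the deubiquitinase Cyld and the RNase Zc3h12a rose with log2 fold changes of 0.95 and 0.76. Il1rl1, the receptor of IL-33, fell from 1006 ± 119 to 13.3 ± 3.50, and Sigirr had a log2 fold change of -0.64. Of 11 measured target genes, 10 were tested. Of these, 6 were upregulated and 2 downregulated, beside 21.7% and 24.4% of all genes tested. Cxcl10 went from 14.8 ± 5.49 to 644 ± 33.1 scaled fragments, though its locus overlaps Cxcl11 and Art3. Ptgs2 and Ccl3 rose with log2 fold changes of 3.88 and 2.35, and Ccl4 fell (-1.41). Il6 also fell, from 5, 4 and 12 fragments before scaling in MPs to 1, 1 and 0 in APL progenitors. The summed FPKM of the target list was 25.6 to 47.4 in MPs and 116 to 154 in APL progenitors. Ccl3, Cxcl10 and Il12a had the highest mean FPKM of the list in APL progenitors, 68.3, 28.1 and 23.4.

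Of 6 genes of the interleukin-1 receptor family, most of which carry the same TIR domain, 5 were upregulated and 1 downregulated. Over all genes tested, 21.7% were upregulated and 24.4% downregulated. Il1r2, a decoy receptor that lacks the TIR domain, went from 11.5 ± 5.56 to 511 ± 42.8 scaled fragments, with an overlapping gene, Gm16894, at its locus. Il1rl2 rose from 226 ± 13.4 to 1188 ± 60.1, and Il18rap, Il1rap and Il1r1 had log2 fold changes of 1.44, 1.26 and 0.79. Il18r1 fell (-1.33). Of 14 sensors of other families, 5 were upregulated and 3 downregulated, beside the same shares of all genes tested. Clec7a, the β-glucan receptor, rose most (1.76), ahead of Nod1 (1.17), a sensor of peptidoglycan, and Pycard (0.89), the inflammasome adaptor. The adaptors of cytosolic nucleic acid sensing, Tmem173 (STING) and Mavs, fell (-1.55 and -1.14), as did the inflammasome sensor Nlrp3 (-0.72). The RNA helicases Ddx58 and Ifih1, which detect viral RNA in the cytosol, had log2 differences of 0.50 and 0.30, below the fold threshold.

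**Figure D5:**
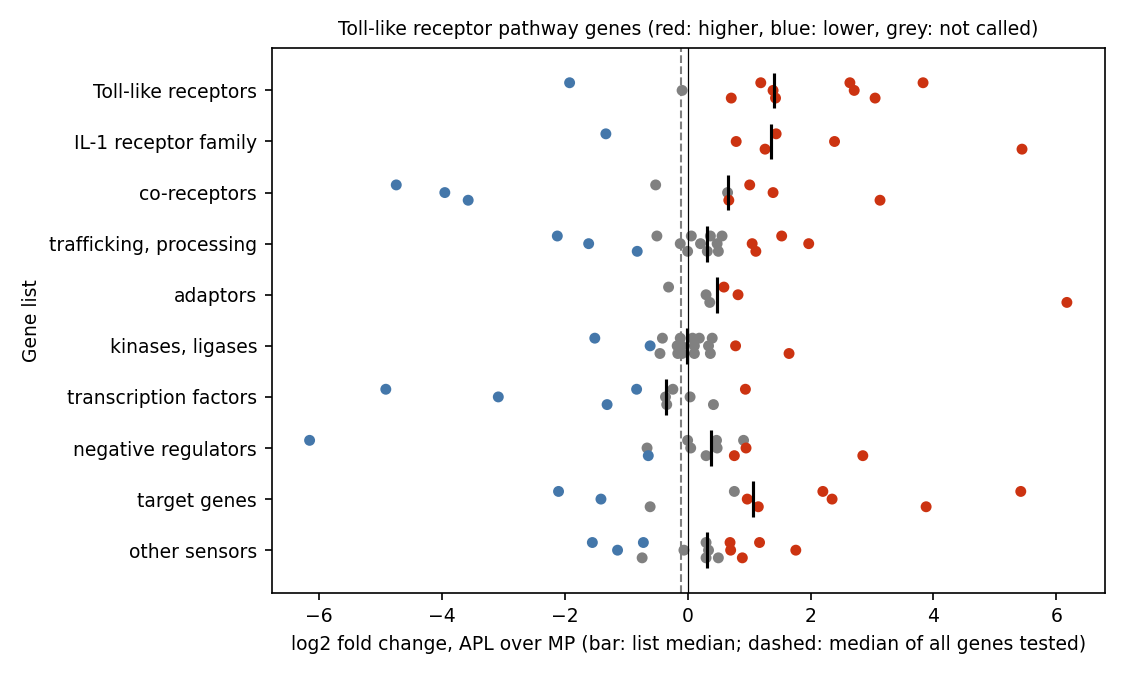
Log2 fold change, APL over MP, of every tested gene of 10 lists, 1 point per gene, with a bar at the list median and a dashed line at the median of all genes tested (-0.10). The Toll-like receptors have a median of 1.41, whereas the lists of signaling proteins spread to both sides, from -0.35 for transcription factors to 0.65 for co-receptors.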

How the data were processed

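Sorted c-Kit+ APL cells and MPs were profiled by RNA-seq with a TruSeq kit, 3 libraries per group. The authors deposited FPKM values and estimated fragments per gene, a signal scaled by a factor of each library. Per the labels, the submitters' processing notes name CASAVA 1.8, TopHat2 2.0.6 and mm10, whereas the paper's methods name STAR on mm9 with HTSeq-count, and the program behind the table is not given in the sources used here. Deposited starts count from 0 (with 1 added, 7057 equal the RefSeq start, against 586 as given), so 1 was added, and coordinates are on GRCm38.

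The value of 1 fragment was taken as the most frequent value near 1 in a library. Divided by it, 90.7% to 91.9% of values under 50 lay within 0.05 of a whole number. Most values were thus close to plain counts. Because the rest were not, the values were treated as estimates and the main fit used no count model. A fit with limma's voom weights on the fragments before scaling was among the alternatives. limma 3.58.1 (R 4.3.3; lmFit, eBayes with trend) was fitted to log2(scaled fragments + 1) for 14595 genes with at least 1 in at least 3 libraries. The call rule was an adjusted p under 0.05 and a fold change over 1.5. Exact permutation tests were two-sided (scipy 1.17.1), and figures were made with matplotlib 3.10.9 and Python 3.11.15. The fit was also run on simulated data as a check of the code. The simulated libraries all had the same spread, with no library set apart like MP library 3, and few changed genes. That check therefore does not show how the fit behaves on these data. A gene at or under 3 fragments was treated as at the floor.

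The receptors, gene lists and rule for named genes (all members, in each list up to 3 called genes with the largest rises and falls, short lists whole, and the 5 genes nearest to Tlr7) were chosen with earlier results of these data known. Further genes were named for their role in the pathway or to complete a short count, after their values were seen, among them Cd79a, Cd79b, Vpreb1, Ly96, Unc93b1, Irak1, Irak4, Irf1, Ddx58 and Ifih1. In all, 18 alternative settings were run. The result of the list of B cell markers is not reported here.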

Additional observations from a re-analysis of the deposited data

How the results depend on the processing

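The number of upregulated receptor genes was 8 under 16 of the 18 alternatives. It was 7 at a fold change of 2 and with libraries scaled to the same total, where Tlr2 was no longer called. The number of downregulated receptor genes was 1 under 16 alternatives. It was 0 under both a filter of at least 10 scaled fragments and FPKM, for which Tlr9 was too low to be tested. Among all genes tested, 2171 of 14595 were upregulated at a fold change of 2 and 2754 of 14877 with the same total. Over the 18 alternatives, 2171 to 3541 genes were upregulated and 2427 to 4376 downregulated. The log2 fold change of Tlr7 ranged from 3.63 to 4.05 over all 18, with adjusted p from 5.6e-10 to 1.4e-06 (limma), and from 3.73 to 3.94 with 1 library left out. The excess of Tlr7 over the median of the other members ranged from 2.13 to 2.84 over 16 alternatives, those with another call rule having the same fold changes. Tlr3 turned to 0.59 with quantile normalization and ranged from -0.43 to 0.50 with 1 library left out, and was called in no setting. Quantile normalization also moved Tlr5 to 2.04, and the cause was not tested. Scaling to the same total moved the median of all genes from -0.10 to -0.23, a shift against which Tlr2 was at 0.57. Without MP library 3, which stood apart, the log2 fold changes of Tlr5, Tlr8, Tlr9 and Tlr13 were 1.53, 2.83, -1.84 and 1.47. With any 1 of the 6 libraries left out they ranged from 1.06 to 1.57, 2.52 to 2.83, -2.37 to -1.55 and 1.04 to 1.78, all still called. The extremes were reached without MP library 1 (Tlr5 1.06, Tlr9 -1.55, Tlr13 1.78) and MP library 2 (Tlr9 -2.37, Tlr13 1.04). With the replicate number as a block, 8 receptor genes were upregulated and 1 downregulated, beside 3164 and 3589 of 14595 genes tested. Tlr7 stayed at 3.83. The deviations of same-numbered libraries had correlations of 0.127, 0.002 and 0.116, not all over 0.1, and MP library 2 was nearest to APL library 1, so the numbers were not taken as pairs. Depth limits Tlr3, Tlr5 and Tlr9, which had at most 15 fragments in any library.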
